A study of Rattus norvegicus with 18 samples.

Results

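Vimentin, the beta thymosins and 2 genes of the contractile cytoskeleton were followed in rat kidney after recovery from ischemic injury. The 5 genes Vim, Tmsb10, Tmsb4x, Tagln and Tpm1 were chosen by name, with earlier results of these data known. Each was represented by 1 spotted cDNA clone with 2 spots, among 2304 clones that named 1483 genes. The ARF rats had gone through 52 min of renal ischemia and reperfusion and had then recovered for 35 days, ARF standing for acute renal failure. The sham rats had the operation without that injury, and the labels used here give neither strain, sex nor age. Total RNA of whole kidney from 1 ARF rat and 1 sham rat was hybridised together for each of 6 pairs, A to F, on 2 arrays with the dyes exchanged. Sham rats were set against other sham rats on 6 more arrays, numbered R1 to R6.

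Vimentin is the intermediate filament protein of mesenchymal cells. In the kidney it is found in interstitial, glomerular and vascular cells, is scarce in mature tubule epithelium, and is known to appear in tubule cells that are regenerating after injury. The beta thymosins are small peptides that bind actin monomers and so hold back a pool of actin from filaments, and Tmsb4x and Tmsb10 encode closely related members of that family. Tagln encodes transgelin (SM22), an actin-binding protein of smooth muscle and of myofibroblasts, and Tpm1 encodes a tropomyosin, which lies along the actin filament and regulates its contact with myosin. In whole-kidney RNA, a change in the number of cells that express a gene and a change in the RNA per cell cannot be told apart.

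The deposited value of a spot is a normalized log ratio of the 2 samples on an array. The labels state neither the log base nor the direction of the ratio. The 2 orientations of a pair correlated above 0 over clones in 6 of 6 pairs (r between 0.196 and 0.58), so both run the same way within a pair. Channel 2 over channel 1 on the arrays with sham in Cy3 was assumed, so that values above 0 mean higher in ARF. With the opposite direction every sign given here would turn. A log ratio of 0.45, the mean of Tmsb10, would be a fold of 1.37 in log2 units, of 1.57 in natural logs or of 2.81 in log10 units.

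Vim, Tmsb10 and Tmsb4x varied together over the pairs, and their promoters are shown for this reason. The 250 bases before the annotated start were read from RefSeq on the rat build GRCr8, at chr17:81577011-81577260 on the plus strand for Vim, at chr4:106569141-106569390 on the minus strand for Tmsb10 and at chrX:30761361-30761610 on the plus strand for Tmsb4x. The RefSeq promoter table held 4 of the 5 genes, without Tagln. The capitals mark matches, on either strand, to TATAAA (the TATA box), to GGGCGG (the GC box) or to CCAAT (the CCAAT box), and no matches overlapped.
Vim: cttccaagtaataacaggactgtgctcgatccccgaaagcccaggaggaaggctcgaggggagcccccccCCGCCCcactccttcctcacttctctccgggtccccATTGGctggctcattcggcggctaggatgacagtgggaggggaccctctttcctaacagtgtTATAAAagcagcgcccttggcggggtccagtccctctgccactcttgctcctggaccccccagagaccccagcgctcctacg
Tmsb10: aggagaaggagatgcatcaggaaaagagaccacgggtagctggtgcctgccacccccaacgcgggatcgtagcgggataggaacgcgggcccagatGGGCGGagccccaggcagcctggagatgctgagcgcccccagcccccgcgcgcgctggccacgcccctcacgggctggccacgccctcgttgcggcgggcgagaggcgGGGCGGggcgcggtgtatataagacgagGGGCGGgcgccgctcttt
Tmsb4x: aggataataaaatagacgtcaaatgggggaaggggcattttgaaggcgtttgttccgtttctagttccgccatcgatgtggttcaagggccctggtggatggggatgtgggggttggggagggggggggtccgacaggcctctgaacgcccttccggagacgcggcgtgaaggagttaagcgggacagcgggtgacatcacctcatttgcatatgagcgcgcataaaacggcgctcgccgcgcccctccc
Vim held 1 match to each of these motifs. Tmsb10 held 3 matches to GGGCGG, and Tmsb4x held none of these motifs. The window of Tpm1, not shown, held 1 match to GGGCGG, 1 to CCAAT and none to TATAAA. Over 27457 rat promoters of the same length, 13.1% held the TATA box letters, 32.4% the GC box and 34.3% the CCAAT box. TGANTCA, the AP-1 element, and the CArG box bound by serum response factor were not found in the windows of Vim, Tmsb10, Tmsb4x or Tpm1, and 6.36% and 1.5% of all promoters held them. These matches describe the letters of these windows only.

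Signal limits what can be compared. Of 4608 spots an ARF-sham array held values for 1586 to 2786, and a sham-sham array for 914 to 2232. All 24 ARF-sham spots had a value for Vim, Tmsb10 and Tmsb4x, against 22 for Tpm1 and 21 for Tagln. Of the kidney's own markers, 7 of 8 proximal tubule genes and 5 of 5 thick limb and distal tubule genes on the array could be tested, while 1 of 6 smooth muscle and pericyte genes and 0 of 2 endothelial genes could. The number of arrays and rats limits the precision, and nothing in the labels ties the pairs to separate batches.

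Vim differed between ARF and sham by a large amount in single pairs, and in opposite directions. The pair values were 0.69 in A, -0.0034 in B, -0.64 in C, 0.17 in D, 0.41 in E and 0.52 in F. Pairs A, E and F were the high ones and pair C was low by nearly as much as pair A was high. The mean was 0.19 ± 0.48 (SD, n = 6 pairs), which did not pass (limma, adjusted p = 0.540). Both orientations gave the same picture, with 0.65 and 0.72 in pair A and -0.60 and -0.67 in pair C with sham in Cy3 and in Cy5. The largest difference between the 2 arrays of a pair was 0.27, in pair F, so the span of 1.33 over pairs was 4.87 times the largest disagreement between orientations.

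Tmsb10 had the highest mean of the 5 genes. Its pair values were 0.91 in A, 0.37 in B, -0.34 in C, 0.31 in D, 0.48 in E and 0.96 in F. It lay above 0 in 5 of 6 pairs, with F and A the highest and C alone below 0. The mean was 0.45 ± 0.47 (SD, n = 6), with an unadjusted p of 0.0109 and an adjusted p of 0.174 (limma). In pair D the 2 orientations disagreed most, at 0.59 with sham in Cy3 and 0.034 with sham in Cy5. Without pair C the mean was 0.61 and the test was passed (limma, adjusted p = 0.0324, n = 5). Pair C was the only pair below 0, so leaving it out had to raise the mean. With any other pair left out Tmsb10 did not pass (limma, adjusted p up to 0.614, without pair F).

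Tmsb4x, the other thymosin gene, ran below Tmsb10 in 5 of 6 pairs. Its pair values were 0.93 in A, 0.16 in B, -0.59 in C, -0.14 in D, 0.12 in E and 0.44 in F. Pair A stood highest and pairs C and D were below 0. The mean was 0.15 ± 0.51 (SD, n = 6; limma, adjusted p = 0.651), and without pair A it was -0.0023. The excess of Tmsb10 over Tmsb4x was 0.30 ± 0.20 (SD, n = 6), between -0.025 in pair A and 0.52 in pair F. It did not pass (two-sided exact sign-flip permutation p = 0.0625, adjusted p = 0.125 over 2 comparisons; the smallest p with 6 pairs is 0.0313). A spotted cDNA can also bind the RNA of a closely related gene, which was not tested for these 2 clones.

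Tagln was measured on both arrays in 5 pairs. Its values were 0.76 in A, 0.20 in B, -0.033 in C, 0.44 in E and 0.70 in F, and pair D had only the array with sham in Cy5, at 0.18. The 2 arrays of pair C disagreed in sign, at -0.17 with sham in Cy3 and 0.10 with sham in Cy5, and the latter rested on 1 spot. Pairs A and F were high and pair C was close to 0 and not low as for Vim. The mean was 0.41 ± 0.33 (SD, n = 5), with an unadjusted p of 0.0053 and an adjusted p of 0.129 (limma). Without pair C, its only pair below 0, the mean was 0.52 over 4 pairs and passed (limma, adjusted p = 0.0364). Leaving out that pair had to raise the mean. With any other pair left out Tagln did not pass (limma, adjusted p up to 0.553, without pair F).

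Tpm1 had the narrowest range. Its pair values were 0.31 in A, 0.18 in B, 0.13 in C, -0.13 in D, 0.31 in E and 0.26 in F. Here pair D, not pair C, was the low one, and 5 of 6 pairs were above 0. The mean was 0.18 ± 0.17 (SD, n = 6), with an unadjusted p of 0.0275 and an adjusted p of 0.268 (limma). The 2 arrays of pair C disagreed in sign, at -0.073 with sham in Cy3 and 0.32 with sham in Cy5, where only 1 of the 2 spots had a value. The span over pairs, 0.45, was 1.05 times the largest difference between orientations, so the order of the pairs is not resolved for Tpm1. Tagln exceeded Tpm1 by 0.17 ± 0.26 (SD, n = 5), which did not pass (two-sided exact sign-flip permutation p = 0.3125, adjusted p = 0.3125; the smallest p with 5 pairs is 0.0625).

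**Figure D1:**
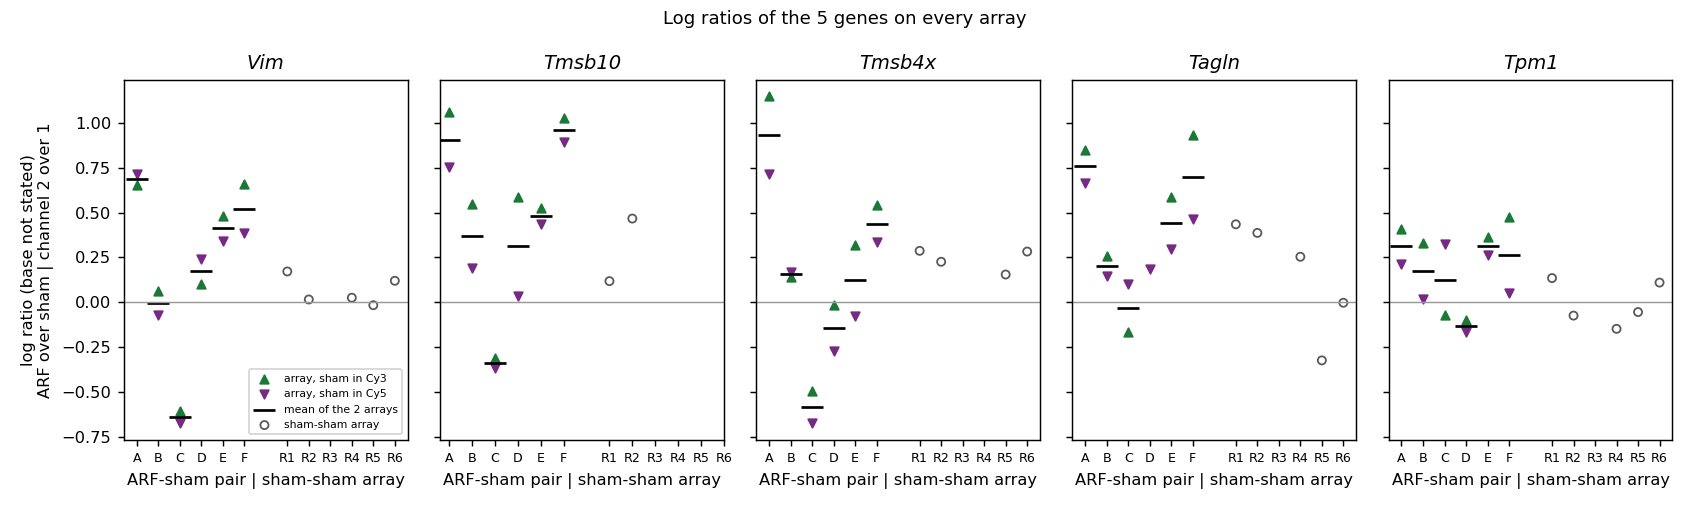
Log ratio (base not stated) of each gene on each array, with ARF over sham for pairs A to F on the left (triangles are single arrays, bars the mean of the 2 arrays) and channel 2 over channel 1 for the sham-sham arrays R1 to R6 on the right (circles). Pair C was at -0.64 for Vim, -0.34 for Tmsb10 and -0.59 for Tmsb4x, while Tpm1 stayed between -0.13 and 0.31.

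Over the 5 genes, 0 passed the threshold of an adjusted p under 0.05 (limma, Benjamini-Hochberg over all 947 clones tested), where 0.95% of all tested clones passed. At an unadjusted p under 0.05 there were 3 of 5, Tagln, Tmsb10 and Tpm1, against 14.7% of all clones. All 3 had a mean above 0, and 6.86% of all clones had both a mean above 0 and an unadjusted p under 0.05. All 5 means were above 0, as were 54.1% of all clones tested. The median of the 5 means was 0.19, against 0.015 over all clones tested. By the two-sided exact sign-flip permutation test over pairs 0 of 5 were under 0.05, with p between 0.0938 and 0.531. Without pair C, the only pair below 0 for either gene, Tmsb10 and Tagln passed, where 2.13% of 891 clones did. With any other pair left out neither passed. With all 12 arrays in the fit and the pair as a replicate block Tmsb10 and Tagln passed (limma, adjusted p = 0.0400 and 0.0264), where 4.44% of clones did, and with a dye term added Tagln passed (adjusted p = 0.0407) and Tmsb10 did not (adjusted p = 0.0571), where 3.06% did. These 5 genes were chosen with earlier results known, so the counts describe them and test nothing further.

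By pair, 5 of 5 genes were above 0 in pairs A, E and F, 4 of 5 in B, 1 of 5 in C (Tpm1), and 2 of the 4 measured in D. The median of the 5 genes was 0.76 in A, 0.18 in B, -0.34 in C, 0.020 in D, 0.41 in E and 0.52 in F. The medians of all tested clones lay between -0.036 and 0.022 on these arrays, whose deposited values are centred on a mean of 0. Pair C was the lowest pair for Vim, Tmsb10 and Tmsb4x, as it was for 26.8% of the 600 clones measured in all 6 pairs. Their SD over pairs was among the largest: 1.33% of the 600 clones varied as much as Vim or more, 1.5% as much as Tmsb10 and 1.00% as much as Tmsb4x. For Tpm1 that share was 53.5%. Over all clones pair C correlated with the other 5 pairs at r between -0.20 and -0.011, and none of the 15 correlations between pairs was below -0.23.

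**Figure D2:**
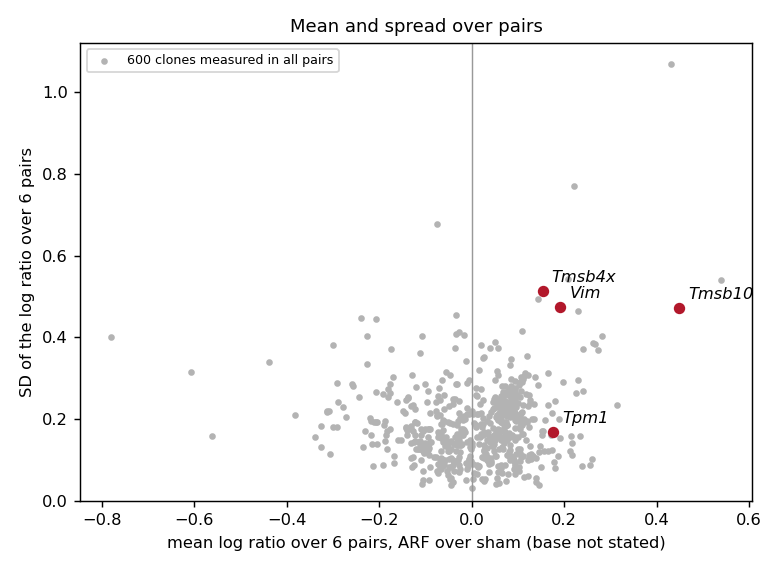
Mean (horizontal) and SD (vertical) of the log ratio, ARF over sham, over 6 pairs for the 600 clones measured in all of them (grey), with 4 of the genes in red. Tagln, measured in 5 pairs, is left out. Vim, Tmsb10 and Tmsb4x lie near the upper edge with SDs of 0.48, 0.47 and 0.51, and Tpm1 lies among the other clones at 0.17.

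Vim and the thymosins varied together from pair to pair. Among the 4 genes measured in all 6 pairs, 6 correlations of pair values were computed. Vim and Tmsb10 had Pearson's r = 0.96 (two-sided exact permutation p = 0.0111, adjusted p = 0.0333) and Spearman's rho = 0.89 (exact permutation p = 0.0333, adjusted p = 0.10). Vim and Tmsb4x had r = 0.89 (exact permutation p = 0.0167, adjusted p = 0.0333) and rho = 0.83 (exact permutation p = 0.0583, adjusted p = 0.117). Tmsb10 and Tmsb4x had r = 0.92 (exact permutation p = 0.0167, adjusted p = 0.0333) and rho = 0.89 (exact permutation p = 0.0333, adjusted p = 0.10). Thus 3 of 6 passed by Pearson's r and 0 of 6 by Spearman's rho. The genes were chosen with earlier results of these data known, so these p-values describe the relation and are no independent test of it. The points share their arrays, and a correlation this high was uncommon among other clones: with Vim, 0.835% of the 599 other clones reached the r of Tmsb10 and 3.84% that of Tmsb4x, and with Tmsb10, 2.34% reached the r of Tmsb4x.

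The extreme pairs carried part of the relation of Vim with the thymosins. Without pairs A and C, the farthest from the median of Vim, r was 0.80 with Tmsb10 and 0.57 with Tmsb4x over 4 pairs (exact permutation p = 0.167 and 0.50). For Tmsb10 and Tmsb4x, r was 0.98 without pairs C and F, the farthest from the median of Tmsb10 (exact permutation p = 0.167). Pair A, the highest for Tmsb4x at 0.93, stayed in. The smallest p that 4 pairs allow is above the threshold. Within the arrays with sham in Cy3 alone the 3 correlations were 0.94, 0.90 and 0.89, and within those with sham in Cy5 0.86, 0.82 and 0.89, with adjusted exact permutation p of 0.0556 to 0.0741.

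The correlations of Tpm1 did not pass. Its r was 0.43 with Vim, 0.49 with Tmsb10 and 0.59 with Tmsb4x (two-sided exact permutation p = 0.414, 0.35 and 0.222, adjusted p = 0.414, 0.414 and 0.333), and rho was between 0.60 and 0.71. Within the arrays with sham in Cy5 these 3 correlations were -0.25, -0.061 and -0.095. Tagln was measured in 5 pairs, and no correlation is given for it. Its order from high to low was A, F, E, B and C. Over the same pairs Vim had that order too, Tmsb10 had F, A, E, B and C, and Tmsb4x had A, F, B, E and C. The span of Tagln over pairs was 1.68 times its largest difference between orientations, so its order is weakly resolved.

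**Figure D3:**
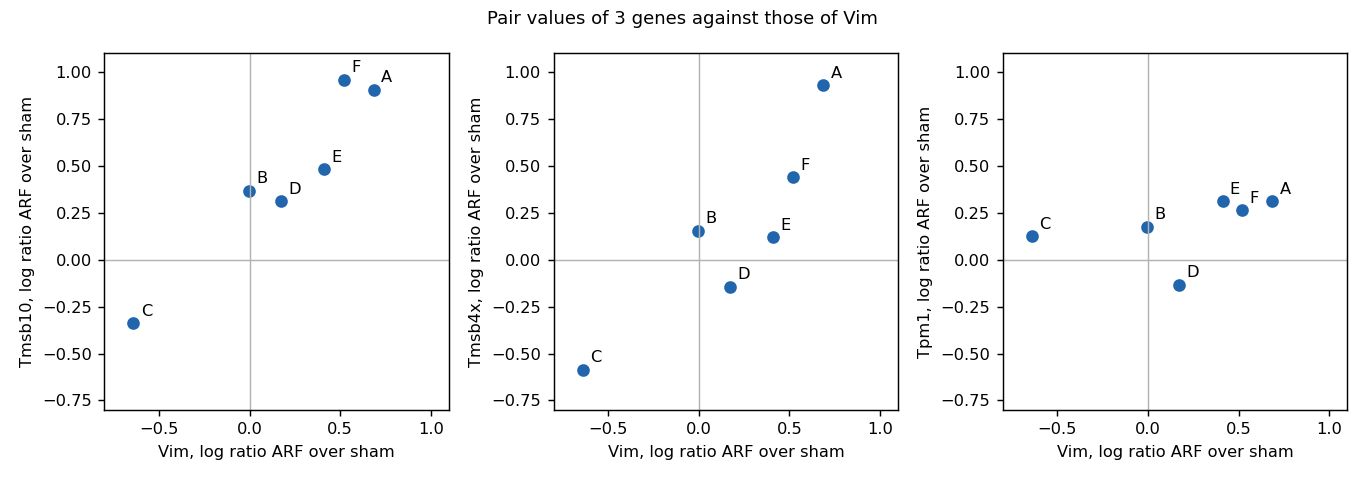
Pair values (log ratio ARF over sham, base not stated) of Tmsb10, Tmsb4x and Tpm1 on the vertical axes against Vim on the horizontal axis, each point 1 pair with its letter. Tmsb10 and Tmsb4x lie along a line with pair C at the lower left (r = 0.96 and 0.89), and the points of Tpm1 are more scattered (r = 0.43).

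Among 419 other named clones measured in all pairs, the genes whose pair values were most like those of Vim by Pearson's r were Serpinh1, a collagen chaperone (0.99), Spp1, the matrix protein osteopontin (0.97), the secreted chaperone Clu (0.96), Tmsb10 (0.96) and the myosin regulatory light chain Myl12b (0.95). For Tmsb10 they were Clu (0.98), the calcium-binding protein S100a11 (0.98), the matrix protein Mgp (0.97), Vim and Myl12b (both 0.96). For Tmsb4x they were the ribosomal protein Rpl24 (0.99), the matrix protein Sparc (0.97), the interleukin receptor Il6r, Mgp and Myl12b (each 0.97). For Tpm1 they were the transcription factors Hes1 (0.90) and Nr2f2 (0.88), the proteoglycan Bgn (0.88), the protease inhibitor Timp2 (0.88) and the RNA-binding protein Zfp36l1 (0.86). The order of the pairs was not resolved for Tpm1, so its list is not resolved either. The sizes differed: in pair C Serpinh1 was at -0.27, Spp1 at -1.15 and Vim at -0.64. Myl12b was common to the lists of Vim, Tmsb10 and Tmsb4x, and no gene was common to the lists of Tpm1 and the others.

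The sham-sham arrays compared the same genes between rats without the injury. Vim was at 0.17 on R1, 0.016 on R2, 0.026 on R4, -0.016 on R5 and 0.12 on R6, a span of 0.19 against 1.33 over the ARF-sham pairs. Its 2 spots were at 0.046 and -0.078 on R5 and at 0.19 and 0.050 on R6. Tpm1 lay between -0.15 and 0.13 on 5 arrays, but its 2 spots on R5 disagreed, at 0.23 and -0.34. Tagln had 0.43 on R1, 0.39 on R2, 0.25 on R4 (1 spot), -0.32 on R5 and -0.0026 on R6. Its span there was 0.76, against 0.79 over pairs. The span of sham-sham ratios depends on which rat was in channel 2, and each is 1 array in 1 orientation. The spans on the sham-sham arrays and over pairs are therefore not like measures, for Vim as for Tagln. The highest Tagln value was 0.43 on a sham-sham array and 0.76 in a pair. R1 and R2 both set another sham rat over sham rat A, whose pair also gave the highest Tagln value. Tmsb4x was above 0 on all 4 arrays that measured it, between 0.15 and 0.29. Tmsb10 had 0.12 on R1 and 0.47 on R2, the 2 arrays that measured it. The value on R2 was near the mean of ARF over sham, 0.45, but it is 1 array in 1 orientation. R2 also had the largest SD over spots of all arrays, 0.374. The sham-sham columns were read in an altered row order, and the direction of their ratio, channel 2 over channel 1, is assumed as well.

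The dye effect was largest for the thymosins. It is given as the array with sham in Cy3 minus the mean of both arrays of the pair, and was 0.12 ± 0.082 for Tmsb4x (SD, n = 6; limma, adjusted p = 0.0490), where 16.1% of all clones passed, and 0.12 ± 0.097 for Tmsb10 (adjusted p = 0.0562). It was above 0 in 5 of 6 pairs for Tmsb4x and in 6 of 6 for Tmsb10, and its mean was above 0 for 57.4% of all clones. For Vim it was 0.034, for Tpm1 0.059 and for Tagln 0.078, with adjusted p between 0.303 and 0.497. The mean of both orientations cancels this effect, but the sham-sham arrays have 1 orientation each, and its part in their values was not tested. With sham in Cy3 alone Tmsb10 had a mean of 0.57 and Tmsb4x of 0.27, and with sham in Cy5 alone 0.33 and 0.033.

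The sham-sham arrays also tie the 12 rats together, so that a relative level could be solved for each rat, with a mean of 0 over rats. This was possible for Vim, Tagln and Tpm1, while Tmsb10 and Tmsb4x lacked the linking arrays. For Vim the ARF rats were at 0.57 (A), -0.25 (B), -0.57 (C), -0.050 (D), 0.31 (E) and 0.57 (F), and the sham rats at -0.12, -0.25, 0.069, -0.22, -0.10 and 0.052 in the same order. The ARF rats ran both above and below the whole range of the sham rats. The SD was 0.47 over ARF rats and 0.13 over sham rats. ARF levels spread more for 80% of the 565 clones solved, and an ARF rat is reached through its sham partner, which adds that step's error. For Tagln the SD was 0.27 over ARF rats and 0.26 over sham rats, and the lowest rat was sham rat A at -0.54, or ARF rat C at -0.63 with the sham-sham ratios turned. For Tpm1 it was 0.26 and 0.14, and the lowest rat was ARF rat D at -0.41, or sham rat C at -0.27 with the ratios turned. No value here settles that direction, and with the ratios turned the SD over ARF rats was 0.52 for Vim, 0.51 for Tagln and 0.17 for Tpm1.

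**Figure D4:**
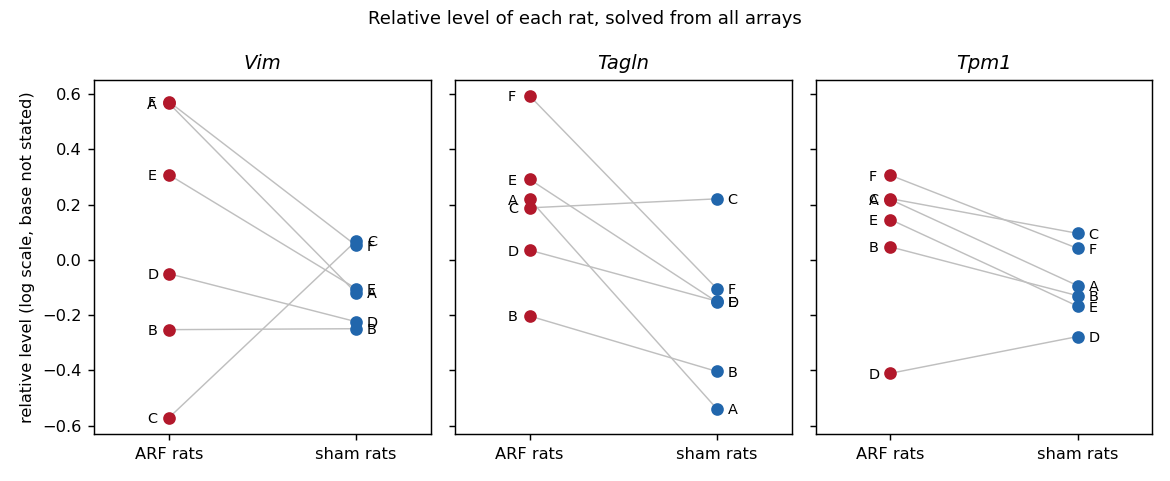
Relative level (log scale, base not stated, mean of all rats 0) of Vim, Tagln and Tpm1 in each ARF rat (red, left) and each sham rat (blue, right), with a line for each pair. For Vim the ARF rats spread from -0.57 to 0.57 and the sham rats from -0.25 to 0.069, while for Tagln the SDs were 0.27 and 0.26 (0.51 and 0.26 with the sham-sham ratios turned).

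Other cytoskeleton genes had means from -0.068 to 0.70, most of them above 0, where those of the 5 genes ran from 0.15 to 0.45. Of 44 such genes on the array besides the 5, 22 could be tested, on 23 clones. 17 of the 23 means were above 0, against 54.1% of all clones tested. 1 clone passed (S100a4, higher), against 0.95% of all clones, and 7 had an unadjusted p under 0.05, against 14.7%. The median of the means was 0.091, against 0.015. The highest means were those of S100a4, a calcium-binding protein that binds myosin (0.70 ± 0.23, n = 4; limma, adjusted p = 0.0284), Anxa2, an annexin at the membrane cytoskeleton (0.27 ± 0.37, n = 6; adjusted p = 0.331), and Myl12b (0.20 ± 0.20, n = 5, and 0.12 ± 0.23, n = 6, for its 2 clones; adjusted p = 0.289 and 0.506). The lowest were Ezr, which links actin to the membrane of the brush border (-0.068 ± 0.079), the actin gene Actc1 (-0.049 ± 0.12) and the spectrin Sptan1 (-0.045 ± 0.15; each n = 6). Other proteins that handle actin monomers, actin itself and another tropomyosin were picked with their values in view. Pfn1, profilin, had 0.14 ± 0.046 with 6 of 6 pairs above 0 (adjusted p = 0.224), Cfl1, cofilin, 0.091 ± 0.079 with 5 of 6 (adjusted p = 0.478) and Actb 0.15 ± 0.17 with 5 of 6 (adjusted p = 0.338). Tpm3, another tropomyosin, had 0.19 ± 0.091 with 5 of 5 pairs above 0 (adjusted p = 0.196). The widest spread over pairs in the list was that of S100a10, a partner of annexin A2, with 0.063 ± 0.57 (SD, n = 5), followed by Anxa2.

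Marker genes of cell types were set beside the 5 genes. Fibroblast and matrix genes had 5 of 6 means above 0, against 54.1% of all clones, and a median mean of 0.36, against 0.015. Of these 6, 2 passed, against 0.95% of all clones: S100a4, which the cytoskeleton list holds too, and Col1a1, a chain of fibrillar collagen (0.53 ± 0.21, n = 4; limma, adjusted p = 0.0482). All 6 had values in A, E and F, but only 3 in B, 3 in C and 2 in D. Of the 2 that passed, Col1a1 had no value in C or D, and S100a4 none in B or D. Sparc, measured in all 6 pairs, had a mean of -0.0275. The median over the genes of this list was 0.71 in A, 0.24 in B and -0.031 in C. It was -0.29 in D, 0.31 in E and 0.36 in F. In pair C, where Vim was at -0.64, the 3 of these genes that were measured were Sparc, a matrix protein, at -0.53, the collagen gene Col3a1 at -0.031 and S100a4 at 0.36. The 2 macrophage and leukocyte genes tested, both class II molecules, had a median of 0.33 in A, 0.28 in B, 0.20 in C, 0.088 in D, -0.18 in E and 0.52 in F, so pair C was not their lowest. The smooth muscle gene Csrp1 had 0.18 ± 0.24 (n = 6; limma, adjusted p = 0.364), with 0.53 in A and -0.13 in C. Of the other lists, proximal tubule genes had 3 of 7 means above 0 (median mean -0.055) and 0 passed. Thick limb and distal tubule genes had 2 of 5 above 0 (median mean -0.24). Of these 1 passed, Egf (-0.34 ± 0.16, n = 6, limma adjusted p = 0.0482). Collecting duct genes had 1 of 2 above 0 (median mean -0.081). Thy1, the 1 podocyte and mesangium gene tested, had a mean of -0.039. The part of these cell types in the values of the 5 genes was not tested.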

How the data were processed

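Rat kidney RNA was measured on 18 two-colour cDNA arrays, 12 of ARF-sham pairs and 6 sham-sham. The authors deposited normalized log values, log ratios of unstated base, from ImaGene 4.1 raw data, per the labels; steps beyond an earlier method for spot quality and weak signals are not given in the sources used here. The deposited columns have a mean of 0 on every array and medians between -0.042 and 0.029. Of the cells, 57.1% were empty.

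Rows 1152 apart held the same clone, and their spots were averaged (the lone value where 1 was empty), then both arrays of a pair. Clones were named from the platform's annotation through RefSeq identifiers (1489 with 1 symbol, 1483 of them matched, 32 with several, 783 with none). On the ARF-sham arrays as deposited, 31 ribosomal protein clones had values on 11.2 of 12 arrays on average, against 6.08 for all clones, so names fit these rows. The sham-sham columns fitted after exchanging adjacent blocks of 288 rows (4.87 of 6 arrays, against 2.23 as deposited), an order found in an earlier analysis and here again the best of 27 block sizes.

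Pair values were tested against 0 with limma 3.58.1 in R 4.3.3, where at least 4 pairs had values on both arrays, with Benjamini-Hochberg adjustment over all of them. The pair is the pairing in the labels. Exact tests used SciPy 1.17.1. Nothing in the labels says more on the source of the rats. The limma and sign-flip p-values set a mean against the spread between these pairs, and limma also draws on the spread of all clones tested. The tests were checked on simulated data. Rat levels were solved by least squares. The genes named are the 5, other cytoskeleton genes with the 3 highest and 3 lowest means or past the threshold, the 5 clones most like each gene, marker genes, and 5 cytoskeleton genes picked with their values in view (Pfn1, Cfl1, Actb, Tpm3 and S100a10). Members and lists were chosen with earlier results of these data known. Alternatives covered centring, orientation, filters, spots, blocking and each pair left out.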

Additional observations from a re-analysis of the deposited data

How the results depend on the processing

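The means of the 5 genes kept their sign under the alternatives tried, except Tmsb4x without pair A (-0.0023), and the calls changed only for Tmsb10 and Tagln. With each pair left out in turn the means ran from 0.092 to 0.36 for Vim, 0.35 to 0.61 for Tmsb10, -0.0023 to 0.30 for Tmsb4x, 0.33 to 0.52 for Tagln and 0.15 to 0.24 for Tpm1, and Tmsb10 and Tagln passed without pair C alone. Over all alternatives adjusted p ran from 0.0324 to 0.614 for Tmsb10 and from 0.0264 to 0.553 for Tagln. With all 12 arrays in the fit and the pair as a replicate block, Tmsb10 (0.45, limma, adjusted p = 0.0400) and Tagln (0.39, adjusted p = 0.0264) passed, where 4.44% of clones did, and with a dye term added Tagln passed (0.39, adjusted p = 0.0407) but Tmsb10 did not (adjusted p = 0.0571). These fits count the 2 arrays of the same rats as more than 1 replicate in part. On 12 rat levels, with no replicate block, none of Vim, Tagln and Tpm1 passed (adjusted p = 0.931, 0.508 and 0.923). The count of clones past the threshold, 9, was 16 with arrays centred on their median, 28 with only sham in Cy3, 5 with single-array pairs kept, 42 with the replicate block, 29 with the dye term, 15 with only the second spot, 2 on rat levels and 0 with limma's trend and robust options, and 0 to 19 with a pair left out. The cause was not tested. The difference between Tmsb10 and Tmsb4x ran from 0.25 to 0.36 with a pair left out, and that between Tagln and Tpm1 from 0.11 to 0.26. Centred on array medians, the dye effect passed for Tmsb10 (0.13, adjusted p = 0.0496) and not for Tmsb4x (0.12, adjusted p = 0.0511). With only sham in Cy3, the correlations of Vim with Tmsb10 (0.944), Vim with Tmsb4x (0.898) and Tmsb10 with Tmsb4x (0.893) did not pass, nor with only sham in Cy5 (0.862, 0.824 and 0.888) or without the 2 farthest pairs (0.797, 0.566 and 0.976), where 4 pairs cannot pass. With only sham in Cy5, those of Tpm1 turned to -0.248, -0.0607 and -0.0953. With rows as deposited the sham-sham means were -0.15 for Vim, -0.10 for Tmsb10, 0.091 for Tmsb4x and -0.17 for Tagln, against 0.063, 0.29, 0.24 and 0.15 in the order used, and Tpm1 had no value.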
